A study of Mus musculus with 2 samples.

Results

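Mir320, Mir484, Mir877, Mir1224 and Mir702 are hairpin genes known to reach their mature form without the nuclear nuclease Drosha. They were chosen by gene symbol, through the identifiers in the deposited tables, and make up 5 of the 1973 microRNA genes measured. All 5 were counted in forebrain tissue of newborn mice (strain B6NCrl, postnatal day 0), from 2 separate pups that form 1 group, pup 3 (replicate 2) and pup 1 (replicate 1). No treatment or mutation is named in the labels, both pups carry the same donor record, and the sex was not collected. Each library came from a single forebrain, a mixture of cell types, so fewer cells of a type and less RNA per cell cannot be told apart. With 1 group there is no contrast, and the data describe levels and the spread between 2 pups.

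Most animal microRNAs are cut first by Drosha with its partner DGCR8 in the nucleus and then by Dicer in the cytoplasm. A mirtron replaces the first cut with splicing, since the excised intron is itself the hairpin once its lariat has been opened. Another class starts where transcription starts, so that the young transcript folds directly into a capped hairpin that Dicer can use. Mir877, Mir1224 and Mir702 are known as mirtrons, and Mir320 and Mir484 as transcription-start hairpins. The mature miR-484 is known from other studies to target the mitochondrial fission receptor Fis1 and the cell adhesion gene Pcdh19.

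The mirtron hairpins are printed to show how they fit an intron, 5′ to 3′, with the first and last bases of the intron in capitals, from the RefSeq table on GRCm38.p6, in which 4 of the 5 members were matched, all but Mir320.
Mir877 hairpin, chr17:35960730-35960814, minus strand: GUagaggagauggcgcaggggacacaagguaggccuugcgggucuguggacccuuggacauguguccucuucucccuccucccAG
Mir1224 hairpin, chr16:20604452-20604536, plus strand: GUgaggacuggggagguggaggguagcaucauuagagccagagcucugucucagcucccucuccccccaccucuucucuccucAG
Mir702 hairpin, chr5:136991433-136991541, plus strand: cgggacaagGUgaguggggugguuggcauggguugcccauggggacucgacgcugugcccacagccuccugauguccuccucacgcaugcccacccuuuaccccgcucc

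The intron boundaries of GENCODE M21 coincided with the hairpin ends for Mir877 and Mir1224. Mir877 filled the 85 bases of intron 12 of 22 in Abcf1, a gene of translation initiation. Mir1224 filled the 85 bases of the last of 22 introns in Vwa5b2, a gene with a von Willebrand factor type A domain. Both hairpins began with GU and ended with AG, the usual first and last bases of an intron. Mir702 lay in intron 13 of 18 in Plod3, which encodes a collagen lysyl hydroxylase, and this intron was 102 bases long. Its annotated hairpin began 9 bases earlier, inside the exon, and stopped 2 bases before the intron's end, so only the GU lies within the printed sequence.

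The mature RNAs of Mir484 and the mirtrons are given with the seed, bases 2 to 8, in capitals, since the seed is the stretch that pairs with target messages.
miR-484: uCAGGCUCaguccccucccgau
miR-877-5p: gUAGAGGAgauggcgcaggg
miR-877-3p: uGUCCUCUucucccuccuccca
miR-1224-5p: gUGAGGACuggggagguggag
miR-1224-3p: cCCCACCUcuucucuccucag
miR-702-5p: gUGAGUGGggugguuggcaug
miR-702-3p: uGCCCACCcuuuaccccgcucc

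In all 3 mirtrons the 5p RNA began at the first base of the intron, at a distance of 0 bases, Mir702 included. The 3p RNA ended at the last base of the intron in Mir1224, 1 base before it in Mir877 and 2 bases before it in Mir702. The 7 mature RNAs printed, of 4 members, held 7 different seeds. Only the seed of miR-702-5p recurred in another mature mouse microRNA of the RefSeq table, miR-3102-5p, printed here for comparison.
miR-3102-5p: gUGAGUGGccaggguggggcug
Mir3102 is not a member, but it too fills a whole intron, of Arhgef17. None of the 7 mature sequences was found in a hairpin of another gene in that table, a search that did not cover the genome.

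**Figure D1:**
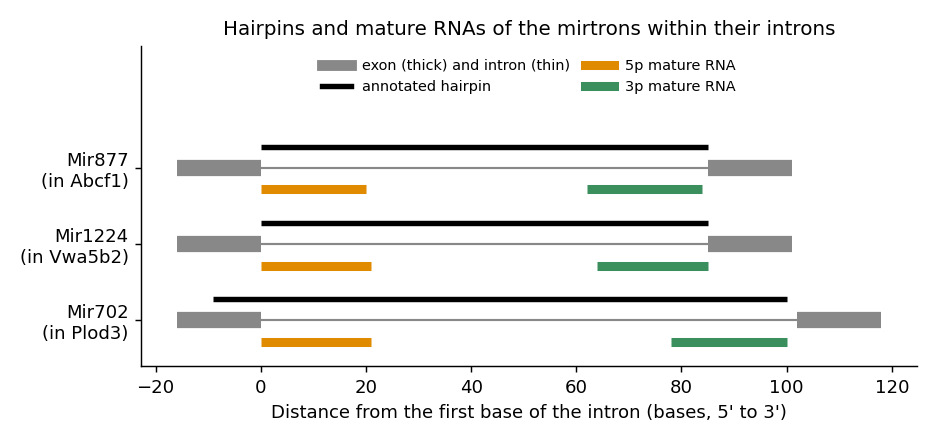
Introns (thin grey), the adjoining ends of their exons (thick grey, drawn in part), annotated hairpins (black) and mature RNAs (5p orange, 3p green) of Mir877, Mir1224 and Mir702, by distance in bases from the first base of the intron. The 5p RNA starts at 0 bases in each, while the Mir702 hairpin starts 9 bases before the intron.

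The arms of the mirtrons had a similar base composition. The members were chosen as mirtrons, whose 3p RNA lies at the end of an intron, so the composition is not independent of that choice. The 5p RNAs were rich in G, with 55% in miR-877-5p, 61.9% in miR-1224-5p and 57.1% in miR-702-5p, against a median of 31.8% over 697 mature 5p RNAs. The 3p RNAs were rich in pyrimidines (C and U), with 90.9% in miR-877-3p, 85.7% in miR-1224-3p and 81.8% in miR-702-3p, against a median of 59.1% over 709 mature 3p RNAs. A stretch of pyrimidines before the closing AG is a usual feature of introns. Each of these 6 values lay above the level that 95% of RNAs of the same arm did not exceed, 54.2% G for 5p and 80.95% pyrimidine for 3p. The whole-intron hairpins that are not members, described further on, were also above those medians, with a median of 55.5% G over 18 mature 5p RNAs and 73.9% pyrimidines over 16 mature 3p RNAs. The mature miR-484, from a hairpin that is not an intron, had 18.2% G and 68.2% pyrimidines.

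For the 4 members with a printed sequence, RNAfold gave a minimum free energy per 100 bases of -50.4 kcal/mol for the Mir1224 hairpin, -43.5 for Mir702, -42.9 for Mir877 and -36.7 for Mir484, with a median of -40.6 over 1005 mouse hairpins. The share of bases predicted to pair was 68.2% in Mir1224, 66.1% in Mir702, 65.9% in Mir877 and 53.7% in Mir484, against a median of 69.0%. The Mir484 hairpin is short, at 67 bases. Bases outside the annotated hairpins were not folded.

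Mir320 and Mir484 lay in no annotated host on their own strand and close to the start of a gene on the opposite strand. Mir320 (ENSMUSG00000065528.1) lies on chromosome 14 from 70443510 to 70443591, plus strand (GRCm38). Its first base was 63 bases upstream of an annotated start of Polr3d, a subunit gene of RNA polymerase III that runs the other way. Mir484 (ENSMUSG00000070074.1) lies on chromosome 16 from 14159626 to 14159692, plus strand. It began 359 bases upstream of an annotated start of Marf1, which encodes an RNA-binding protein of the germ line, and lay opposite a longer Marf1 transcript. The nearest annotated starts on their own strand were far, at 13966 bases downstream of the Mir320 hairpin (Phyhip) and 3649 bases downstream of the Mir484 hairpin (Nde1). No annotated transcript therefore begins at either hairpin, and the transcription start known for this class could not be checked against GENCODE. Over all 1894 annotated hairpins, 32 (1.69%) began within 500 bases upstream of an opposite-strand start, a window chosen after the positions were seen.

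The library of pup 3 held 7678662 reads assigned to a microRNA gene and that of pup 1 held 9037087. Reads that map to several places, 43.5% of all reads in pup 3 and 43.0% in pup 1, were given to no gene. The tissue label was checked on neural hairpins: the brain-enriched Mir137 stood at 28970 ± 6541 counts per 1000000 assigned reads (CPM), against 64.5 ± 14.9 CPM for the liver hairpin Mir122 (SD, n = 2). The muscle hairpin Mir206 stood at 69.7 ± 35.6 CPM and Mir1a-1 had no count. The neural hairpins Mir128-1 and Mir9-3 stood at 5919 ± 1152 and 533 ± 213.8 CPM, and Mir124a-1, a gene with near-identical copies, at 9.85 ± 6.88 CPM.

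All 5 members were detected in the newborn forebrain, with transcription-start hairpins above mirtrons in both pups. Detected means 10 or more counts in both pups, which 21.9% of the 1973 genes reached. Every read of the members lay on the strand of the hairpin, and none on the opposite strand. The summed share of the members was 0.399% in pup 3 and 0.485% in pup 1 of all reads assigned to genes, a mean of 0.442% ± 0.0606 (SD, n = 2). Mir320 and Mir484 supplied 29548 of the 30656 member reads in pup 3 and 41755 of 43824 in pup 1.

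Mir484 was the most abundant member. It had 24968 counts in pup 3 and 34490 counts in pup 1, which is 3252 CPM (95% exact binomial interval 3211 to 3292) and 3817 CPM (3776 to 3857). The mean was 3534 ± 399 CPM (SD, n = 2), rank 57 of all genes. It held 81.4% of the member reads in pup 3 and 78.7% in pup 1. Intervals on counts cover counting error only, since repeated reads of the same molecule are not separated.

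Mir320 came next. It had 4580 counts in pup 3 and 7265 counts in pup 1, which is 596 CPM (579 to 614) and 804 CPM (786 to 823). Its mean of 700.2 ± 146.7 CPM (SD, n = 2) placed it at rank 121. In CPM the intervals of the pups did not overlap for Mir484 or for Mir320, with pup 3 the lower in both.

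The 3 mirtrons stood lower, with mean levels under the median of 97.3 CPM among the 433 detected genes. Mir877 (ENSMUSG00000077931.1) had 458 counts in pup 3 and 902 counts in pup 1, or 59.6 CPM (54.3 to 65.4) and 99.8 CPM (93.4 to 106.5), and a mean of 79.7 ± 28.4 CPM (SD, n = 2), rank 231. Mir702 (ENSMUSG00000076240.1) had 550 counts in pup 3 and 798 counts in pup 1, or 71.6 CPM (65.8 to 77.9) and 88.3 CPM (82.3 to 94.6), and a mean of 80.0 ± 11.8 CPM, rank 230. Their means were nearly equal, with Mir702 the higher in pup 3 and Mir877 the higher in pup 1.

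Mir1224 was the least abundant member and the one whose pups differed most as a ratio, though not in CPM. It (ENSMUSG00000080669.1) had 100 counts in pup 3 and 369 counts in pup 1, or 13.0 CPM (10.6 to 15.8) and 40.8 CPM (36.8 to 45.2). The mean was 26.9 ± 19.7 CPM (SD, n = 2), rank 279. The level in pup 1 lay below every other member's level in either pup.

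**Figure D2:**
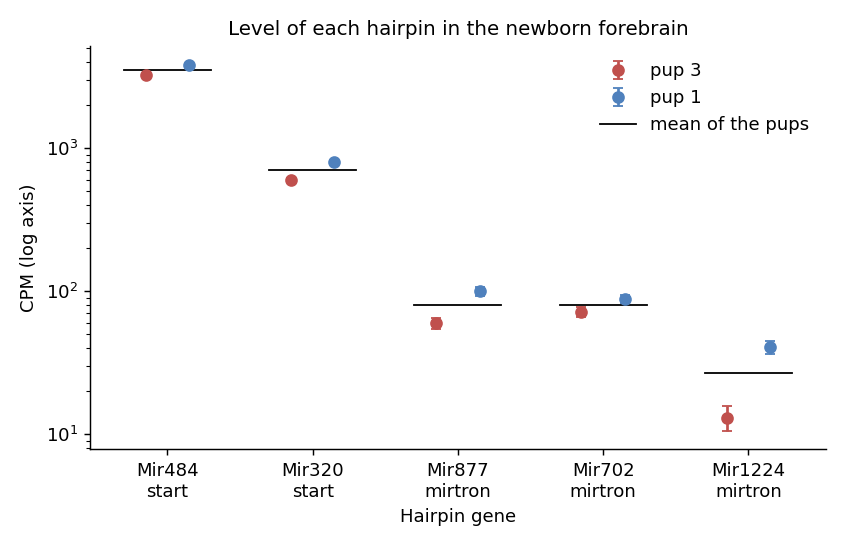
Counts per 1000000 assigned reads (CPM, log axis) of each hairpin in pup 3 and pup 1, with 95% exact binomial intervals for counting error and the mean of the pups as a line. Mir484 and Mir320 lie above the mirtrons in both pups. On the log axis Mir1224 shows the widest gap between pups, 13.0 CPM in pup 3 and 40.8 CPM in pup 1.

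A read here holds a mature RNA of under 30 bases, so CPM does not grow with gene length as it does for messenger RNA. The levels were also set per 100 bases of hairpin, as a second scale. For the reason just given, that scale corrects no length effect, and it raises short hairpins such as Mir484 relative to long ones such as Mir702. The folds depend on that choice of scale. On this scale Mir484 stood at 5275 ± 596, Mir320 at 854 ± 178.9, Mir877 at 93.8 ± 33.4, Mir702 at 73.4 ± 10.8 and Mir1224 at 31.7 ± 23.1 CPM per 100 bases (SD, n = 2). Mir484 was 6.18-fold above Mir320 per length, and Mir320 was 9.10-fold above Mir877, both with ranges that did not overlap between genes. The neighbours Mir877 and Mir702 differed by 20.4 CPM per 100 bases, less than the SD of 33.4 of Mir877, and their order was the other way round in CPM. Mir702 was 2.32-fold above Mir1224 per length, and their ranges did not overlap, although the difference rests on 4.29-fold in pup 3 and 1.69-fold in pup 1. From the highest to the lowest member the levels per length spanned 317-fold in pup 3 and 119-fold in pup 1. In CPM the span was 250-fold in pup 3 and 93.5-fold in pup 1, and the mean of Mir484 was 5.05-fold above that of Mir320.

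**Figure D3:**
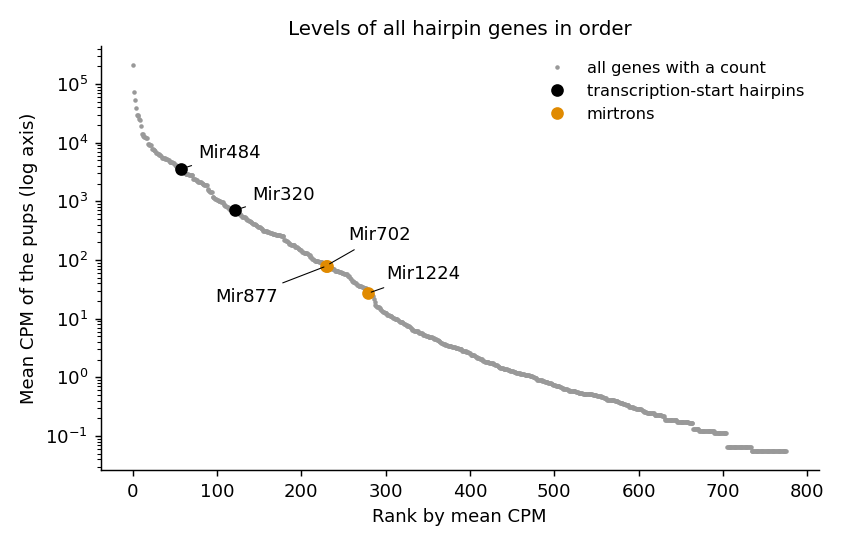
Mean CPM of the pups (log axis) against rank for every gene with a count (grey), with the transcription-start hairpins in black and the mirtrons in orange. Mir484 lies at rank 57 and Mir320 at rank 121, while the mirtrons lie at ranks 230 to 279.

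Genes with the most similar levels were found by the Euclidean distance of log2(CPM + 0.5) over the 2 pups, a measure of level with so few samples. Mir153 and Mir151 were nearest to Mir484, at distances of 0.05 and 0.15. Mir467e and Mir676 were nearest to Mir320 (0.12 and 0.13), Mir193b and Mir181a-2 to Mir877 (0.14 and 0.15), and Mir669c and Mir218-2 to Mir702 (0.03 and 0.12). Mir3547 and Mir302b were nearest to Mir1224, at larger distances of 0.36 and 0.41. Mir3547, like Mir1224, fills a whole intron.

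Between pups, the members were compared as the log2 ratio of pup 3 over pup 1, on counts scaled by the TMM factors of edgeR. These ratios set 2 libraries of the same group side by side, so they have no replicate check and no p-value. For Mir1224 the log2 ratio was -1.44 (-1.78 to -1.13, exact binomial, 95%), so pup 3 had 0.368 of the level in pup 1. Among the 310 genes whose mean reached 10 CPM, 1 had a lower ratio, and 2.90% had a larger gap in either direction. The median gap of these genes, without regard to direction, was 0.36 on the log2 scale.

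The other members lay closer to 0. Mir877 had a log2 ratio of -0.54 (-0.71 to -0.38), Mir320 of -0.23 (-0.28 to -0.18), Mir702 of -0.10 (-0.26 to 0.06) and Mir484 of -0.03 (-0.05 to -0.01). The interval of Mir702 included 0. Only Mir1224 was at least 1.5-fold apart between pups, while 32.9% of the 310 genes were, so 1 of 5 members is no more than the background gives. With scaling by total counts, Mir877 also passed 1.5-fold, at 0.598 of its level in pup 1, which made 2 of 5 members beside 35.8% of the 310 genes.

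All 5 ratios were below 0, with a median of -0.23, while 51.9% of the 310 genes had a ratio below 0, with a median of -0.03. Scaling by total counts moved the median of the 310 genes by -0.20, and 65.8% of them were then below 0. The members' direction therefore has to be read against a background where a ratio below 0 is common. The ratios of Mir484 and Mir702 are smaller than that shift between scalings.

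**Figure D4:**
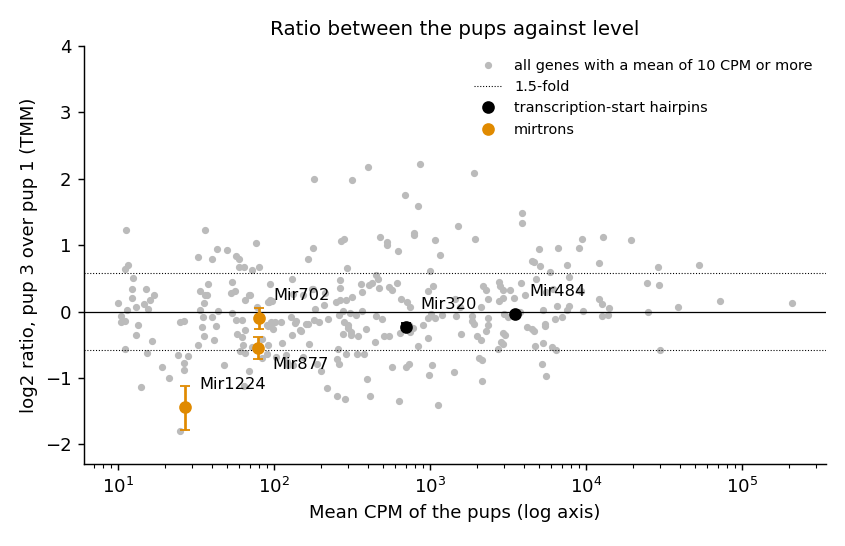
Log2 ratio of pup 3 over pup 1 (TMM scaling) against mean CPM (log axis) for 310 genes (grey), with the transcription-start hairpins in black and the mirtrons in orange and 95% exact binomial intervals. Dotted lines mark 1.5-fold, and of the members only Mir1224, at -1.44, lies beyond them.

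To place the mirtrons among their kind, hairpins that span a whole annotated intron were sought, with both ends within 5 bases of the splice sites. Of 1894 annotated hairpins 23 did (1.21%), Mir877 and Mir1224 among them, and Mir702 did not because of its 9 exonic bases. With 10 bases allowed, 29 hairpins did, and Mir702 was then among them. Of these 23, 10 were detected, beside 21.9% of all 1973 genes. A further 7 had no count in either pup, as had 1198 of the 1973 genes. Their introns were 67 to 137 bases long, with a median of 85. Of the 17 with a RefSeq hairpin, 15 began with GU and ended with AG, as did 30 of all 1005 hairpins, these 15 among them. Such ends largely follow from the rule, since GU and AG are the usual ends of an intron.

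Under the 5-base rule Mir877 had the highest mean level of the whole-intron hairpins, in CPM and per hairpin length (93.8 CPM per 100 bases). Mir702, which enters with 10 bases allowed, was nearly equal and slightly higher in mean CPM (80.0 against 79.7), but lower per length. Mir3102 in Arhgef17 had 47.1 CPM in pup 3 and 68.8 CPM in pup 1. Mir1981 in Marc2, a mitochondrial reductase gene, had 70.1 CPM in pup 3 and 45.3 CPM in pup 1, so in pup 3 it was above Mir877, also per length (85.4 against 70.2 CPM per 100 bases). Mir6944 in Dbn1, which encodes the neuronal actin-binding protein drebrin, had 40.9 CPM in pup 3 and 35.3 CPM in pup 1.

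Mir3547 in Baiap3, a gene of dense-core vesicle traffic, had 10.03 CPM in pup 3 and 40.4 CPM in pup 1, close to the values of Mir1224. Its log2 ratio was -1.80 (-2.18 to -1.45), the lowest of the 310 genes, with Mir1224 the second lowest. The direction was not shared by all whole-intron hairpins, since Mir1981 had 0.83 (0.64 to 1.02) and Mir6944 had 0.41 (0.18 to 0.64). Of the 6 whose mean reached 10 CPM, 4 were below 0, beside 51.9% of the 310 genes. The other 4 detected hairpins, Mir1982, Mir7080, Mir6958 and Mir7070, had means between 3.36 and 8.24 CPM.

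**Figure D5:**
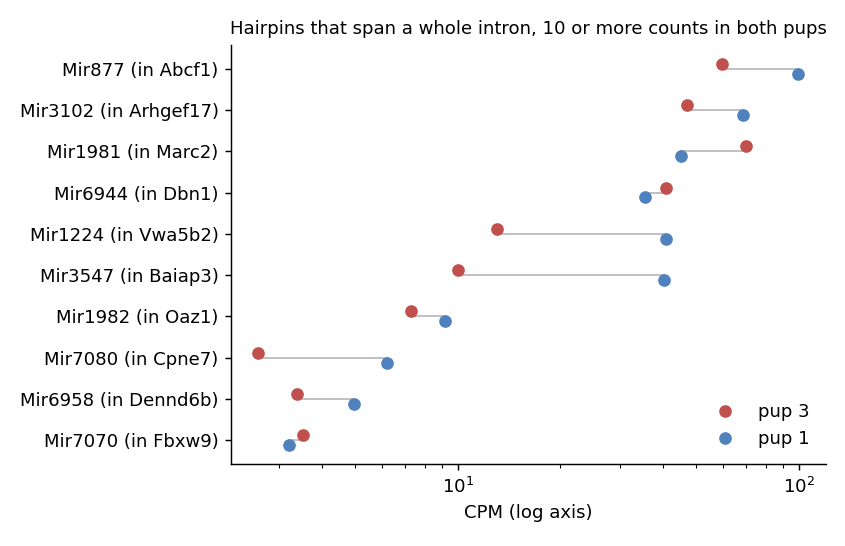
CPM (log axis) in pup 3 (red) and pup 1 (blue) of the 10 hairpins that span a whole intron and have 10 or more counts in both pups, with the host gene in brackets. Mir1224 and Mir3547 show the lowest ratios of the 6 hairpins whose mean reached 10 CPM, with 13.0 and 10.03 CPM in pup 3 against 40.8 and 40.4 CPM in pup 1.

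Of a list of 4 other hairpins known from the literature to bypass Drosha or Dicer, 3 were analysed here and all were detected: Mir1983 at 2130 ± 651 CPM, the erythroid Mir451a, which is cut by Ago2 in place of Dicer, at 271 ± 111.9 CPM, and Mir668 at 176.5 ± 12.6 CPM (SD, n = 2). Their log2 ratios were -0.43, 1.07 and 0.35, in that order. Of 15 hairpins in introns of single host genes that follow the usual route through Drosha, 13 were analysed and all were detected, with a median of 316.5 CPM and a range of 5.79 to 29226 CPM. They were led by Mir335, in the imprinted gene Mest, and Mir140 (4076 ± 82.9 CPM). The median of the 5 members was 80.0 CPM, and Mir484 with 3534 CPM lay within that range, all in CPM and not per length. Of the 12 whose mean reached 10 CPM, 5 had a ratio below 0 and 7 above, with a median log2 ratio of 0.13. For comparison, 21.9% of all 1973 genes were detected, and 51.9% of the 310 genes had a ratio below 0.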

How the data were processed

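Small RNA of 2 newborn forebrains, under 30 bases by the labels, was sequenced. The authors deposited raw read counts for each microRNA gene (mm10, annotation M4, per the notes beside the tables). The sources used here do not name the aligner or the counter. Of 3 count columns, the first (both strands) was used. In every gene it equals the sum of the others, read as sense and opposite strand. A further 4 tallies that name no gene were left out of library sizes. Both arms of a hairpin are pooled in a count.

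Members and lists were chosen with earlier results of these data known. Positions came from GENCODE M21 (GRCm38, the assembly of mm10), which matched 1894 of 1973 identifiers, and sequences from RefSeq. Ratios used edgeR 4.0.16 TMM factors (0.933 for pup 3, 1.07 for pup 1) and 0.5 added counts, without a test. The ratio was checked on simulated counts with planted changes and counting error but no other variation between pups, which covers the calculation only. Named genes are the 5 members, the 2 nearest to each, the 2 highest of each list (all of the shorter ones), and up to 10 whole-intron hairpins. Alternatives were DESeq2 1.42.0 size factors, total counts, the sense column, other minimums and each pup alone. Folding used RNAfold 2.7.2, and scripts used Python 3.11.15 and R 4.3.3.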

Additional observations from a re-analysis of the deposited data

How the results depend on the processing

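With 2 pups, each level rests on 2 values. Leaving out a pup gave 3252 to 3817 CPM for Mir484, 596 to 804 for Mir320, 59.6 to 99.8 for Mir877, 71.6 to 88.3 for Mir702 and 13.0 to 40.8 for Mir1224. The members' share then ran from 0.399% to 0.485%. Relative to the level, the single pup decides the value of Mir1224 most, and counts of 100 in pup 3 set its precision. With all reads of the library as the denominator of CPM, the means and the share fell, because that denominator is larger. The means were 1432 for Mir484, 283.5 for Mir320, 32.4 for Mir702, 32.3 for Mir877 and 10.9 for Mir1224, and the share was 0.179%. The fall of Mir1224, from 26.9 CPM, passed as no change only because its SD of 19.7 CPM is wide. Per 100 bases of hairpin the means were 5275 for Mir484 and 854 for Mir320. Under total counts the log2 ratios were -0.43 for Mir320, -0.23 for Mir484, -0.74 for Mir877, -0.30 for Mir702 and -1.64 for Mir1224. Then 2 members were at least 1.5-fold apart, as were 35.8% of the 310 genes, because that scaling moves all ratios by the same amount. With 10 bases allowed at the splice sites, whole-intron hairpins numbered 29 in place of 23, with 3 members among them in place of 2, and with 0 bases they numbered 22. No ratio changed sign, but total counts and the sense column moved every member's ratio further below 0. DESeq2 size factors moved the median of the 310 genes by only 0.011, less than the smallest member ratio, -0.03 for Mir484. These settings therefore had little or no room to turn a direction. By the rule used, 46 values stayed within the spread, the counting interval or 1.5 times the count. These 46 include the single-pup values and the whole-intron counts given above. The value of a single pup cannot leave the SD of 2 pups, so leaving out a pup could not count as a change. The planned folding of flanking bases was not run, since no genome was used here.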
